A study of Rattus norvegicus with 6 samples.

Results

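The SLC25 family of mitochondrial solute carriers was followed in rat heart after repeated doxorubicin, an anthracycline chemotherapy drug. Members were all gene symbols of the count table that begin with Slc25a and a number, after the rows of a symbol were summed. There were 40 such symbols among 17487. The low-count filter kept 30 of them among 9205 tested symbols, and the other 10 are described by their counts only. Heart RNA came from adult male Wistar rats, an outbred laboratory stock, with 1 library per animal. The doxorubicin group was 3 rats injected in the tail vein with doxorubicin hydrochloride, 3.75 mg/kg once a week for 4 weeks. The control group was 3 rats given the vehicle, 0.9% sodium chloride, on the same schedule. The part of the heart and the interval after the last injection were not given in the labels, so a direct effect of the drug and a later state of the heart cannot be told apart.

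SLC25 proteins sit mostly in the inner mitochondrial membrane, which is closed to most metabolites, and each exchanges or imports a particular set of solutes. In heart muscle they bring ADP and phosphate in and send ATP out, admit fatty acids bound to carnitine, and run the exchange of malate, oxoglutarate, aspartate and glutamate that moves reducing equivalents. Others carry cofactors such as coenzyme A and S-adenosylmethionine, or iron, and several have no settled substrate.

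The libraries held 2219685 to 3508282 counts. Levels are given as CPM, the count relative to a library total scaled by the trimmed mean of M-values (TMM), and sets of 3 values follow libraries 1, 2 and 3 of a group. Here 3 counts correspond to 0.852 to 1.33 CPM. Control library 1 stood apart on the first principal component of all tested symbols, at 43.3 against -26.6 to 4.83 for the other libraries. It also held the most hemoglobin RNA, 0.658% of its counts against 0.0678% to 0.280% elsewhere. Cardiomyocyte markers were present in all libraries, with 10 of 10 tested and a summed level of 115856 to 135956 CPM in control and 114727 to 128912 CPM in doxorubicin libraries. The sum mixes directions, with 7 markers below and 3 above control. Among those above, Myh7 had a mean of 5269 CPM in control and 20239 CPM in doxorubicin libraries. The tissue was bulk, so fewer cells of a type and less RNA per cell cannot be told apart.

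No SLC25 member passed the test, and the differences that stood out were lower levels of particular carriers, while the members as a whole spread on both sides of 0. In edgeR's quasi-likelihood test, 0 of 30 members had a Benjamini-Hochberg adjusted p under 0.05, where 0.0543% of all tested symbols did. DESeq2, run without the low-count filter of edgeR, called 1 of 34 members and 74 of 13048 symbols. With limma voom 0 members and 0 symbols were called. At an unadjusted p under 0.05 there were 6 members, all lower in doxorubicin, and 8.10% of all tested symbols reached that level (4.11% lower and 4.00% higher). These 6 were Slc25a34, Slc25a10, Slc25a22, Slc25a20, Slc25a25 and Slc25a39. Control and doxorubicin values were fully apart for 6 members, 5 lower and 1 higher, where 13.4% of all tested symbols were apart (7.06% lower and 6.39% higher). The median log2 fold change of the 30 members was -0.04, beside 0.02 for all tested symbols, and 19 of the 30 were below control, where 47.9% of all tested symbols were. With library size only as the scaling these medians were 0.05 and 0.10, and 14 of the 30 members were below 0. In that fit 3 lower and 1 higher member had an unadjusted p under 0.05, beside 7.75% of all tested symbols. With TMM scaling the members ran from -0.99 for Slc25a34 to 0.81 for Slc25a30.

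**Figure D1:**
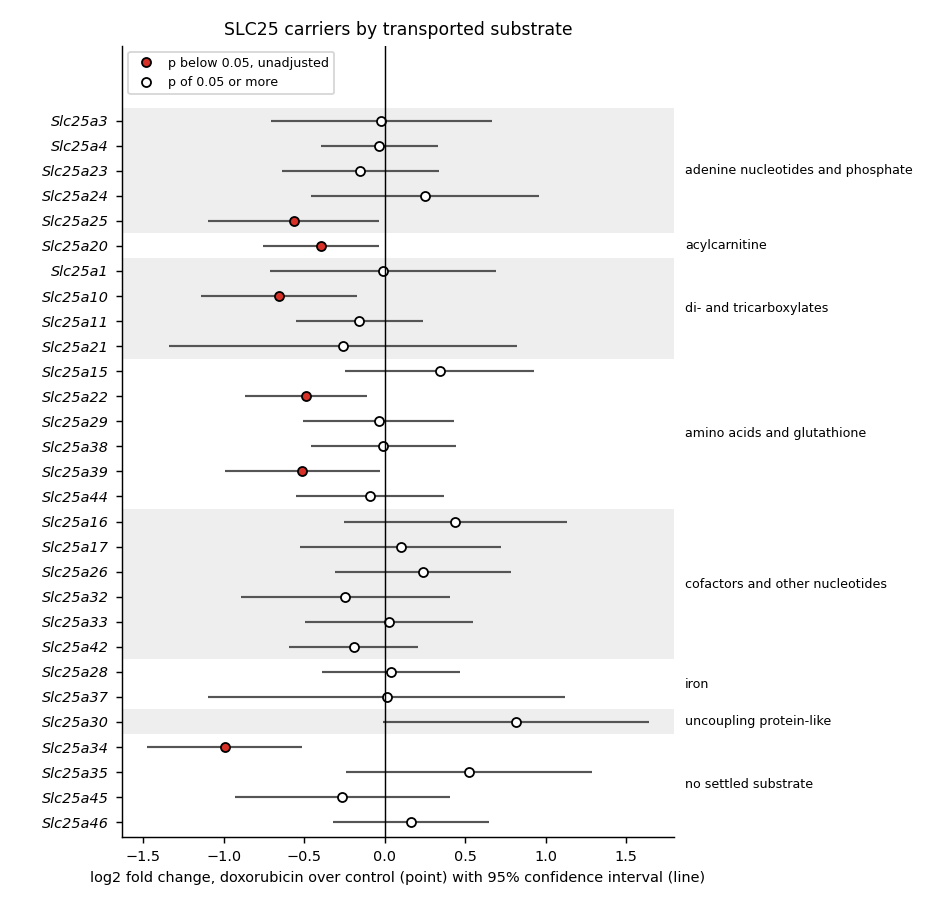
Log2 fold change of doxorubicin over control (points) with 95% confidence intervals from the edgeR fit (lines) for 29 of the 30 tested members, grouped by transported substrate; filled points have an unadjusted p under 0.05. The 6 filled points all lie left of 0, at -0.99 to -0.40, and Slc25a4 sits at -0.03.

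The promoters of the 4 members with the smallest unadjusted p-values in edgeR are shown. These 4 were picked by this contrast. Slc25a25, whose doxorubicin values were also all below its control values, is not shown. Each runs from 250 bases before to 50 bases after the gene start, from RefSeq in the assembly GRCr8: Slc25a34 at chr5:159219843-159220142 (- strand), Slc25a10 at chr10:106264146-106264445 (+ strand), Slc25a22 at chr1:205965828-205966127 (- strand) and Slc25a20 at chr8:118243323-118243622 (+ strand). Capitals mark matches to the motifs named after the sequences, on either strand.
Slc25a34: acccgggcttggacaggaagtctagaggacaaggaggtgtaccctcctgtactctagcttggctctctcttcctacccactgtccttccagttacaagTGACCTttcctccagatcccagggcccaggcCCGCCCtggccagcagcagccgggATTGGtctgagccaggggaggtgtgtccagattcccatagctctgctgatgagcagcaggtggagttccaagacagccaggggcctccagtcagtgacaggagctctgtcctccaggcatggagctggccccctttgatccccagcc
Slc25a10: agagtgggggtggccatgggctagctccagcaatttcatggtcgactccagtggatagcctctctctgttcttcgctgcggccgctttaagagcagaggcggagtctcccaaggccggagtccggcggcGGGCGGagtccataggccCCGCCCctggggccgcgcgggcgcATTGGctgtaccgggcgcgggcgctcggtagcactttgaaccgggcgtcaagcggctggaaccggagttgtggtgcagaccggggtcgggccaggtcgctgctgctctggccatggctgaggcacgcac
Slc25a22: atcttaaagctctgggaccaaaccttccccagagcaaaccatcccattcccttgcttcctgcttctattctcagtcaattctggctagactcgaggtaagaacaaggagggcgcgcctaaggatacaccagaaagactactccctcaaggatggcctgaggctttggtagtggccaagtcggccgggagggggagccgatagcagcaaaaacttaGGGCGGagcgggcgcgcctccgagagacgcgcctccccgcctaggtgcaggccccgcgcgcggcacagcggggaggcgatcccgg
Slc25a20: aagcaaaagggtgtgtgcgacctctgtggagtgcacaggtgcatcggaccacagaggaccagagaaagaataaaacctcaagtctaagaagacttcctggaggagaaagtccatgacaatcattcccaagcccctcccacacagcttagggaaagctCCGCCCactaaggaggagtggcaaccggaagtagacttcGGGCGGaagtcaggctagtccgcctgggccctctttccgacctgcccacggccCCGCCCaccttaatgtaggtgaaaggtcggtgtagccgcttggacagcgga

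The motifs searched were the nuclear receptor half-site AGGTCA, the GC box GGGCGG, the CCAAT box, the E-box CACGTG, the cyclic AMP response element TGACGTCA, the TATA box TATAAA and the FoxO core GTAAACA, with the NRF1 and MEF2 sites searched as well. No motif contains another. The last 6, each held by 1.83% to 14.2% of all promoters, were in none of the 4 windows. Among member promoters not shown, those of Slc25a25 and Slc25a33 held the cyclic AMP response element. All 4 windows held a GC box, which 33.1% of 33469 promoters of that length and 24 of 34 member promoters also held. The window of Slc25a20 held 3 and that of Slc25a10 held 2. The windows of Slc25a34 and Slc25a10 held a CCAAT box, found in 37.5% of promoters. Of these 4, the nuclear receptor half-site was found only in Slc25a34, on the reverse strand 152 bases before the start, and 16.2% of promoters and 6 of 34 member promoters held it. The base composition differed among the 4, with 3 CpG pairs in the window of Slc25a34 and 28 in that of Slc25a10. A match describes letters and shows no binding.

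The adenine nucleotide and phosphate carriers move the substrate and product of ATP synthase. Slc25a4, which encodes the ADP/ATP carrier of heart and skeletal muscle, was at 8943, 9502 and 8993 CPM in the controls and at 9062, 9142 and 8617 CPM after doxorubicin. The groups overlapped, and all 6 values lay close together. Its log2 fold change was -0.03 with a 95% interval of -0.40 to 0.33. Slc25a4 made up 77.1% ± 2.44 of the counts listed for the 40 symbols in control and 79.6% ± 0.872 in doxorubicin hearts (SD, n = 3). Most of these counts were thus those of 1 gene. The 40 symbols together took 1.15% ± 0.0754 of library counts in control and 1.15% ± 0.0149 in doxorubicin hearts. Both shares have a limit: Slc25a5 was listed at 0, Slc25a3 had only 18 to 49 counts per library, and carriers not analysed here are left out.

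Ckmt2, the mitochondrial creatine kinase that turns ATP exported by the ADP/ATP carrier into phosphocreatine, differed from Slc25a4 in its pattern. It was at 6962, 6049 and 5663 CPM in the controls and at 3811, 4570 and 4205 CPM after doxorubicin. Every doxorubicin value was below every control value, with a log2 fold change of -0.57 (SE 0.18) that did not pass the adjusted threshold (adjusted p 0.366 in edgeR). Per 100 counts of Slc25a4 the controls held 77.8, 63.7 and 63.0 counts of Ckmt2, against 42.1, 49.98 and 48.8 after doxorubicin. This ratio was chosen after the values were seen and was given no test.

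The remaining genes of this group carry phosphate or exchange ATP-magnesium for phosphate. Slc25a25, a calcium-regulated carrier of the second kind, was at 29.4, 21.8 and 23.0 CPM in the controls and at 17.7, 15.3 and 17.1 CPM after doxorubicin. The groups did not overlap, on 49 to 81 counts per library. The fitted log2 difference was -0.57 (SE 0.25) with an adjusted p of 0.579 in edgeR, and without control library 1 it was -0.42. An unadjusted p under 0.05 was reached in 7 of 15 alternatives, and of the 6 fits without 1 library only in that without control library 2. Its paralogs Slc25a23 and Slc25a24 had log2 fold changes of -0.15 and 0.25, and their groups overlapped. Slc25a3, the phosphate carrier, was listed on 2 rows and had only 18 to 49 counts per library, at 15.3, 7.997 and 13.6 CPM in the controls and 11.6, 10.6 and 14.4 CPM after doxorubicin. Of the 599 symbols on several rows, 98 were tested, and how reads shared between rows were counted was not stated, so the Slc25a3 level may be incomplete. Slc25a5, the second ADP/ATP carrier, and Slc25a41, a further ATP-magnesium carrier, were listed at 0 in all libraries. RefSeq names 9 pseudogenes of Slc25a5 in the assembly GRCr8, and how the counting treated reads shared with them was not stated.

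Slc25a20 encodes the carnitine/acylcarnitine carrier, which brings long-chain fatty acids bound to carnitine into the matrix for oxidation. It was at 423, 425 and 413 CPM in the controls and at 298, 330.4 and 330.1 CPM after doxorubicin. Values within each group were tight, and the groups were well apart. The control mean was 420.2 ± 6.64 CPM and the doxorubicin mean 319 ± 18.7 CPM (SD, n = 3), 24.0% lower on the fitted scale. On the log2 scale the difference was -0.40 (SE 0.17), with an adjusted p of 0.558 in edgeR. The fitted difference kept its direction in all 15 alternative analyses, at -0.41 to -0.31, with an unadjusted p under 0.05 in 7 of them. Of the 6 fits without 1 library, only that without control library 1 kept it under 0.05.

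Other genes of the carnitine shuttle were below control in 5 of 5 cases, with 3 at an unadjusted p under 0.05 and 0 past the adjusted threshold in edgeR. Of all tested symbols 47.9% were below control and 8.10% had an unadjusted p under 0.05. Without control library 1 the counts of shuttle genes were the same, beside 5.61% of all tested symbols at an unadjusted p under 0.05. Without doxorubicin library 1 the 3 became 0, beside 6.69%. Cpt2, which frees the fatty acid from carnitine on the matrix side, was at 393, 418 and 380 CPM in the controls and 255, 302 and 292 CPM after doxorubicin. Crat, the carnitine acetyltransferase, was at 885 to 1071 CPM in control and 590 to 776 CPM in doxorubicin libraries. Neither gene had overlapping groups, with log2 fold changes of -0.49 for Cpt2 and -0.50 for Crat. Cpt1b, the muscle enzyme that forms acylcarnitine at the outer membrane, had a log2 fold change of -0.16, and its groups overlapped. Cpt1a, its liver-type counterpart, had -0.70 with overlapping groups.

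Carriers of di- and tricarboxylates link the citrate cycle with the cytosol. All 4 tested members were below control, 1 of them at an unadjusted p under 0.05. Slc25a10, the dicarboxylate carrier that exchanges malate or succinate for phosphate, was at 82.5, 58.2 and 47.7 CPM in the controls and at 36.6, 42.4 and 40.1 CPM after doxorubicin. Control library 1 was highest, and even the lowest control value was above all doxorubicin values. The fitted log2 difference was -0.66 (SE 0.23) with an adjusted p of 0.420 in edgeR. It was -0.40 without control library 1, the library that stood apart, and the unadjusted p was then 0.0683.

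Slc25a11, the oxoglutarate/malate carrier of the malate-aspartate shuttle, was at 1055, 821 and 792 CPM in the controls and at 774, 766 and 852 CPM after doxorubicin. The groups overlapped, with a log2 fold change of -0.16 and a 95% interval of -0.55 to 0.24. Without control library 1 the log2 fold change was -0.01. The shuttle's aspartate/glutamate carriers Slc25a12 and Slc25a13 were not analysed here. Of the 4 listed enzymes of the shuttle 3 were tested. Mdh2, mitochondrial malate dehydrogenase, had a log2 fold change of -0.32 without overlap of the groups. Got1 and Got2, the aspartate aminotransferases, had -0.23 and -0.25 with overlap. None of these 3 reached an unadjusted p under 0.05. Slc25a1, the citrate carrier, was low at 20 to 46 counts per library, with a log2 fold change of -0.01 and an interval of -0.71 to 0.69. Slc25a21, the oxoadipate carrier, had 7 to 26 counts per library and a log2 fold change of -0.26. Its 95% interval of -1.34 to 0.82 was wide and held differences in both directions.

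Among the amino acid and glutathione carriers 6 members were tested, and 2 of them were at an unadjusted p under 0.05. Slc25a22, a glutamate carrier, was at 101, 96.0 and 120.1 CPM in the controls and at 71.3, 77.4 and 77.5 CPM after doxorubicin. All doxorubicin values were below all control values. Means were 106 ± 12.8 CPM in control and 75.4 ± 3.57 CPM in doxorubicin libraries (SD, n = 3). The log2 difference was -0.49 (SE 0.18), with an adjusted p of 0.454 in edgeR, and without control library 3 it was -0.38 with an unadjusted p of 0.0934. Its paralog Slc25a18 had at most 1 count in a library, so nearly all counts of the pair were those of Slc25a22.

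Slc25a39, a glutathione importer, was at 410.5, 225 and 253 CPM in the controls and at 190.3, 233 and 200.1 CPM after doxorubicin. The groups overlapped, because doxorubicin library 2 lay above control library 2, and the control mean was raised by control library 1. The log2 fold change of -0.51 (SE 0.23, adjusted p 0.580 in edgeR) became -0.20 without that library, with an unadjusted p of 0.243, and the unadjusted p was also above 0.05 without doxorubicin library 1 or 3. Its paralog Slc25a40 had 3 to 20 counts per library and was not tested. Slc25a39 took 99.4%, 99.4% and 99.0% of the counts of the pair in the controls, and 98.7%, 98.9% and 97.1% after doxorubicin. The groups of this share did not overlap, with an exact 2-sided permutation p of 0.1, the smallest that 3 against 3 can give, and 0.2 after adjustment over the 2 pairs that could be tested. The Wilson 95% intervals were 98.8% to 99.7% in control library 1 and 95.6% to 98.1% in doxorubicin library 3, and in doxorubicin library 1 the interval was 97.4% to 99.3%, so the shares of neighbouring libraries cannot be separated at this depth.

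Slc25a15, the ornithine carrier, was the member higher in doxorubicin whose groups did not overlap. It was at 15.3, 14.7 and 12.5 CPM in the controls and at 16.4, 15.3 and 21.8 CPM after doxorubicin. The gap was small beside the counting error, since doxorubicin library 2 and control library 1 both stood at 15.3 CPM. The fitted log2 difference was 0.34 (SE 0.27) with an adjusted p of 0.786 in edgeR, and without doxorubicin library 3 it was 0.18. Slc25a29, a basic amino acid carrier, Slc25a38, a glycine carrier, and Slc25a44, a carrier of branched-chain amino acids, had log2 fold changes of -0.04, -0.01 and -0.09, each with overlapping groups. Slc25a2, an ornithine carrier paralog, had 1 to 12 counts per library and was not tested.

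Cofactor carriers supply the matrix with compounds that its enzymes need. None of the 7 tested members reached an unadjusted p under 0.05 and all had overlapping groups, with log2 fold changes of -0.24 to 0.44. Slc25a33, which carries pyrimidine nucleotides, was at 22.5, 17.3 and 23.9 CPM in the controls and 22.5, 19.97 and 22.7 CPM after doxorubicin. Slc25a42, the coenzyme A carrier, had -0.19. Slc25a26, the S-adenosylmethionine carrier, had 0.24, and Slc25a16, linked to coenzyme A, had 0.44. Slc25a32, a folate and flavin carrier, had -0.24, and Slc25a17, a peroxisomal cofactor carrier, had 0.10.

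The mitoferrins bring iron to the matrix for heme and iron-sulfur cluster synthesis, and doxorubicin is known to bind iron. Slc25a28, mitoferrin-2, was at 40.1, 44.0 and 53.4 CPM in the controls and at 46.2, 45.9 and 49.5 CPM after doxorubicin. The groups overlapped, with a log2 fold change of 0.04 and an interval of -0.39 to 0.47. Slc25a37, mitoferrin-1, which is known from red cell precursors, was near the detection limit, with 7, 5 and 21 counts in the controls against 13, 8 and 16 after doxorubicin. It did not follow the hemoglobin RNA, which was highest in control library 1. The erythroid enzyme gene Alas2 was at 0 in all libraries. Mitoferrin-1 took 7.04% ± 2.71 of the counts of the pair in control and 7.38% ± 1.93 in doxorubicin hearts (SD, n = 3), with an exact 2-sided permutation p of 0.9. Of 9 partner genes for iron-sulfur clusters and heme, 0 passed the adjusted threshold in edgeR, 6 were below control and the median log2 fold change was -0.04, with 1 at an unadjusted p under 0.05.

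Slc25a30, an uncoupling protein-like carrier, had the highest fold change of the tested members, and was singled out after its values were seen. It was at 26.7, 39.1 and 15.6 CPM in the controls and at 69.7, 22.8 and 48.6 CPM after doxorubicin. Doxorubicin libraries 1 and 3 were above all controls, and doxorubicin library 2 lay inside the control range. On the log2 scale doxorubicin was 0.81 above control (SE 0.38, adjusted p 0.615 in edgeR), and this ranged from 0.42 without doxorubicin library 1 to 1.18 without control library 2. It was 0.52 without control library 3 and 1.15 without doxorubicin library 2, where the unadjusted p was 0.00336 and the adjusted p 0.195 in edgeR. The related Slc25a27 had at most 3 counts per library and Slc25a14 was listed at 0.

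The family members that carry other symbols give a contrast. Ucp3, the muscle uncoupling protein, was at 35.5, 30.7 and 52.5 CPM in the controls and at 2.89, 8.74 and 6.19 CPM after doxorubicin. It was the only one of the 5 listed genes past the adjusted threshold (log2 fold change -2.73, adjusted p 0.0194 in edgeR). Without 1 library its adjusted p ranged from 0.00236 to 0.182, under 0.05 only without control library 2 or doxorubicin library 2, while the log2 fold change stayed between -3.10 and -2.41. Ucp2, expressed in many tissues, had -0.18, and Mtch1, an outer membrane relative, had -0.19, both with overlapping groups. Ucp1 and Mtch2 were listed at 0. Mtch2 was on 2 rows, so its level carries the same limit as that of Slc25a3. Ucp3 and Slc25a30 thus had fitted values of opposite sign, and the difference between them was not tested.

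Slc25a34, a carrier with no settled substrate, had the largest difference of all members. It was at 299, 198 and 204 CPM in the controls and at 91.8, 149 and 111 CPM after doxorubicin. The groups were apart, from 286 to 784 counts per library, with doxorubicin library 2 nearest to the controls. The control mean was 234 ± 57.1 CPM and the doxorubicin mean 117 ± 29.0 CPM (SD, n = 3), 49.8% lower on the fitted scale. This is -0.99 on the log2 scale (SE 0.23, 95% interval -1.48 to -0.51), with an unadjusted p of 0.000590 and an adjusted p of 0.157 in edgeR. Slc25a34 was past the adjusted threshold with DESeq2 (adjusted p 0.0111) and in edgeR without the low-count filter (0.0124). Over all symbols 74 and 61 passed in these fits, against 5 in the main fit. The adjusted p ranged from 0.0111 to 0.418 over 15 alternatives, all of which gave a negative log2 fold change, from -1.19 to -0.77, and an unadjusted p under 0.05.

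The paralog next to it in the family, Slc25a35, did not share that pattern: it had a log2 fold change of 0.53 (95% interval -0.24 to 1.29) on 12 to 45 counts per library, with overlapping groups. Slc25a46, an outer membrane protein involved in mitochondrial shape, had 0.16, and Slc25a45, of no settled substrate, had -0.26, both with overlapping groups. Slc25a47, Slc25a53 and Slc25a54 were listed at 0 in all libraries.

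**Figure D2:**
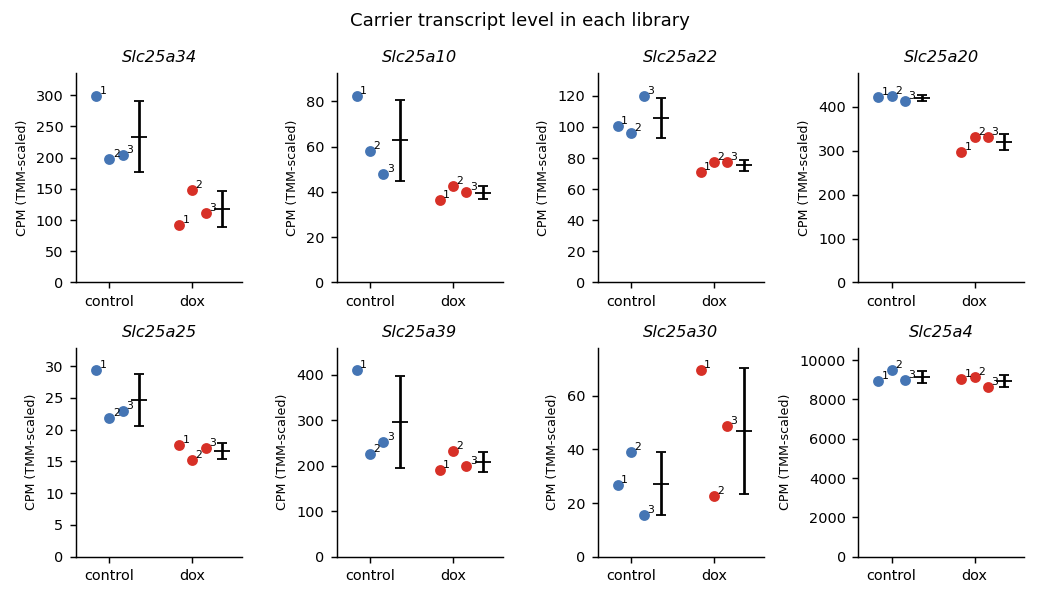
TMM-scaled CPM of 8 members in each library (blue, control; red, doxorubicin; numbers, replicate), with mean and SD in black and the vertical axis starting at 0. Slc25a34, Slc25a10, Slc25a22, Slc25a20 and Slc25a25 have no overlap between groups, Slc25a39 and Slc25a30 overlap, and Slc25a4 lies at 8617 to 9502 CPM throughout.

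**Figure D3:**
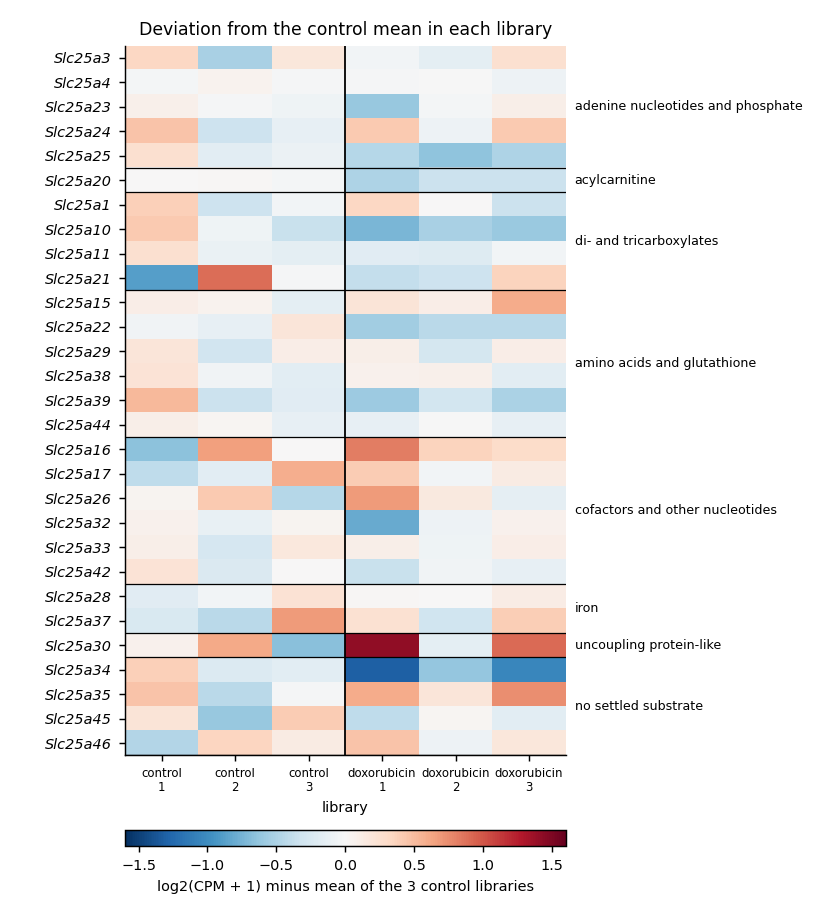
Deviation of each library from the mean of the 3 control libraries, on the log2(CPM + 1) scale, for 29 of the 30 tested members in substrate groups (red, above; blue, below). The rows of Slc25a34, Slc25a10, Slc25a22, Slc25a20 and Slc25a25 are blue in all 3 doxorubicin libraries, while most rows of the cofactor group mix colours within both groups.

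The 6 members at an unadjusted p under 0.05 had a median deviation from the control mean of -0.57, -0.48 and -0.50 on the log2(CPM + 1) scale after doxorubicin. In the controls their medians were 0.32, -0.15 and -0.13, so control library 1 raised the mean to which all libraries were compared. Over all 30 tested members the medians after doxorubicin were -0.03, -0.08 and 0.06. The first set was picked by this contrast, so its medians are a description only.

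Other mitochondrial genes were set beside the carriers, and 0 of those described next passed the adjusted threshold in edgeR. Of all tested symbols 47.9% were below control and 8.10% had an unadjusted p under 0.05. Nuclear-encoded oxidative phosphorylation subunits had a median log2 fold change of -0.41, with 64 of 66 below control and 21 at an unadjusted p under 0.05. Control library 1 bore on this list: without it the median was -0.21, with 64 of 66 below control and 4 at an unadjusted p under 0.05. In that fit 5.61% of all tested symbols reached this level, so the count of 4 was near the share of all symbols. The fits without 1 library gave 4 to 39 such genes, beside 5.61% to 9.53% of all tested symbols. In that list Uqcrc1 and Uqcrq, subunits of complex III, had the smallest p-values, with -0.66 and -0.63, and both were highest in control library 1. Of 8 tested genes that import carriers into the inner membrane, 7 were below control with a median of -0.26 and 0 at an unadjusted p under 0.05. Without control library 1 this was 5 of 8 with a median of -0.08. Of 17 other tested transporters and channels of mitochondria, 12 were below control, with a median of -0.21. They include Vdac1, the outer membrane channel through which these solutes pass, at 1506, 1566 and 1432 CPM in the controls and 1121, 1273 and 1197 CPM after doxorubicin, without overlap. Mpc1, a subunit of the pyruvate carrier, had -0.51 at an unadjusted p of 0.0434 with overlapping groups. Of 7 tested genes of phosphoryl transfer, Ckmt2 among them, 6 were below control and the median was -0.32, or 5 and -0.11 without control library 1. Of 4 tested citrate partners 3 were below control and the median was -0.18. The differences between these medians and that of the carriers were not tested.

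**Figure D4:**
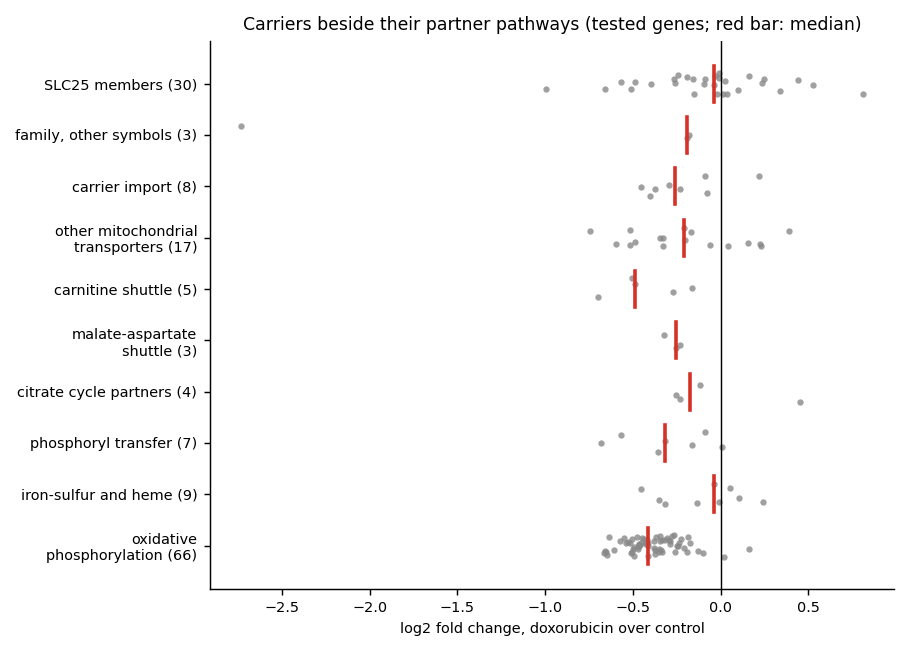
Log2 fold change of each tested gene (grey points) and the list median (red bars) for the SLC25 members and 9 related lists, with the number of tested genes in brackets. The carriers spread on both sides of 0 around a median of -0.04, the oxidative phosphorylation list lies almost wholly left of 0 around -0.41, and the point at -2.73 is Ucp3.

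Markers of other cells were compared as well, and their part in the carrier results was not tested. Macrophage markers were above control for 11 of 12 tested genes, with a summed level of 279 to 304 CPM in control and 334 to 551 CPM in doxorubicin libraries, and none of the 12 was at 0. Lyz2, a myeloid lysozyme gene, had the smallest p of that list, with a log2 fold change of 0.82. Endothelial markers had summed levels of 1436 to 1609 CPM and 1134 to 1583 CPM, fibroblast markers 2786 to 3085 CPM and 2356 to 3923 CPM, and smooth muscle markers 454 to 594 CPM and 386 to 557 CPM, each in control and doxorubicin libraries in that order. Of the 10 endothelial markers 6 were below and 4 above control, with a median log2 fold change of -0.14. Of these 10, 2 were at an unadjusted p under 0.05 in edgeR, both lower. The lowest was Cldn5, an endothelial junction gene, at -1.15, and the highest marker was at 0.36. The erythroid list had 7 of 10 genes tested, all below control, and summed to 2040 to 7438 CPM in control and 701 to 2737 CPM in doxorubicin libraries. Of these 7, 6 were hemoglobin genes, 1 was at an unadjusted p under 0.05 in edgeR, and 0 had groups without overlap. Hemoglobin RNA was 0.658%, 0.202% and 0.253% of counts in the controls, and 0.0678%, 0.240% and 0.280% after doxorubicin. The adipocyte list had 2 of 6 genes tested, Fabp4 and Cidea, both also expressed in heart, with -0.44 and -0.68, and its defining marker Adipoq was at 0.000 to 2.67 CPM. The skeletal muscle list had 1 of 8 tested, Acta1, at 1.05, and the fast myosin Myh4 had at most 1 count. Within the cardiomyocyte list Ryr2, the calcium release channel, was past the adjusted threshold at -1.62. Ryr2 was listed on 2 rows, so its level carries the same limit as that of Slc25a3, and of the 6 fits without 1 library only that without doxorubicin library 2 kept it past the threshold. Myh7, the beta myosin heavy chain, had 1.94.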

How the data were processed

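RNA was measured in 6 heart libraries, 3 control and 3 doxorubicin, grouped by sample title, each from a separate rat. The deposited values are unnormalized read counts per annotated row, as the authors made them, and the submitters' processing notes name FastQC, Trimmomatic, STAR, HTSeq and the build mRatBN7.2. Counting mode, strand setting and annotation were not given in the sources used here. Without known strand use, reads of overlapping genes cannot be told apart, and in RefSeq GRCr8, which named all 40 members, Slc25a20, Slc25a22 and Slc25a25 are among those that overlap other genes.

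The 18473 rows were summed to 17487 symbols. The test was edgeR 4.0.16 (R 4.3.3), quasi-likelihood, with treatment as the only term, TMM scaling, robust dispersion and filterByExpr at a minimum count of 10 and a minimum total of 15, with Benjamini-Hochberg adjustment over 9205 symbols at 0.05. Its code was also run on simulated data with larger changes than those of the members. That run checks the code and does not give the power for the differences described here. The standard error is the absolute log2 fold change over the square root of F. Alternatives used DESeq2 1.42.0 and limma 3.58.1. Exact permutation tests and Wilson 95% intervals used scipy 1.17.1, and figures matplotlib 3.10.9. The Wilson intervals cover counting error only, while the intervals of log2 fold changes come from the edgeR fit and include the spread between animals.

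Members, substrate groups and lists were chosen with earlier results of these data known. Slc25a26 was put in the cofactor group after the table was seen. Values per library were given for members at an unadjusted p under 0.05, for those without overlap at a mean of at least 5 CPM, for 6 planned paralog pairs, and for Slc25a3, Slc25a20 and Slc25a11. Other listed genes were named if at an unadjusted p under 0.01 or past the threshold, and any further gene was chosen after its values were seen. Paralog shares could be tested for 2 of the 6 pairs, because 1 gene of each other pair was at or near 0 or not analysed here. Slc25a6, Slc25a31, Slc25a36, Slc25a43, Slc25a48, Slc25a51 and Slc25a52 were not analysed here. Libraries of a group differed by more than sampling noise, with chi-square values of at least 4.32 per degree of freedom in each pair. Values of 1 tested member and 1 listed gene are not reported here, and the member is left out of the plots that name each member.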

Additional observations from a re-analysis of the deposited data

How the results depend on the processing

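Of the 30 tested members 0 passed the adjusted threshold. With DESeq2 and with no filter 1 did, Slc25a34 in both, and in the 6 fits that each left out 1 library 0 did. At an unadjusted p under 0.05 there were 6 members, and 3 to 7 in the fits without 1 library. There were 3, all among the 6, when library 1 or 3 of either group was left out. The 7 without control library 2 were 5 of the 6 plus Slc25a16 and Slc25a30, both higher, and the 5 without doxorubicin library 2 were 4 of the 6 plus Slc25a30. Of all tested symbols 8.10% reached that level in the main fit, and 5.61% to 9.53% in the fits without 1 library. Members without overlap numbered 7 to 10 in the fits without 1 library. A smaller group is more easily set apart, so these counts cannot be compared with the 6 of all libraries. The share of all symbols without overlap was not counted in these fits. Over all symbols 5 passed. There were 61 with no filter, 74 with DESeq2, 0 with limma voom, 0 with library size only, 1 with only symbols on 1 row, and 0 to 35 without 1 library. With the replicate block 13 symbols and 0 members passed. At an unadjusted p under 0.05 were 3 members in that fit, beside 6.59% of all tested symbols. Correlations of the deviations of same-numbered libraries were 0.021, -0.19 and -0.056, none was its number's best match, and the labels describe no pairing. The cause of these moves was not tested.

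Log2 fold changes near 0 reversed. Slc25a3 became 0.074 with library size only, 0.013 with the replicate block, and -0.23 to 0.15 without 1 library. Slc25a4 became 0.050 with library size only, where all symbols had a median of 0.10 in place of 0.02, and ranged from -0.045 to 0.0060 without 1 library. Without 1 library Slc25a28 ranged from -0.045 to 0.17, Slc25a33 from -0.086 to 0.12 and Slc25a37 from -0.21 to 0.62. The Slc25a37 share difference of 0.344 percentage points ranged from -0.770 to 1.85, and the Slc25a39 share difference of -1.04 from -1.38 to -0.481. Slc25a34, Slc25a10, Slc25a22, Slc25a20, Slc25a25, Slc25a39, Slc25a15, Slc25a11 and Slc25a30 kept their direction in all 15 alternatives, though Slc25a11 came to -0.011 without control library 1 and Slc25a15 to 0.18 without doxorubicin library 3.

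The 10 untested members had counts too low for the filter, 6 of them 0 in all libraries, and the reason was not tested. Among the least covered tested members, Slc25a21 had 7 to 26 counts per library and a 95% interval of -1.34 to 0.82.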
